A study of Arabidopsis thaliana with 24 samples.

Results

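The 9 genes described here encode the core steps of aliphatic glucosinolate synthesis in Arabidopsis thaliana: CYP79F1 (AT1G16410), CYP79F2 (AT1G16400), CYP83A1 (AT4G13770), GSTF11 (AT3G03190), GSTU20 (AT1G78370), GGP1 (AT4G30530), UGT74C1 (AT2G31790), SOT17 (AT1G18590) and SOT18 (AT1G74090). They were chosen by locus identifier from knowledge of the pathway, with earlier results of these data already known. All 9 were listed among the 23202 genes of the authors' deposited table for the ecotype Col-0 and among the 23059 genes of that for Ler. The RNA-seq side of the study compared seedlings 2 weeks old in 4 groups, diploid (2x) Col-0, tetraploid (4x) Col-0, diploid (2x) Ler and tetraploid (4x) Ler, with 2 libraries in each. All were grown in soil at 22 °C, and the labels name no transgene or treatment in any group. The sources used here do not say how the tetraploid lines were made, how many seedlings went into a library or which of the day lengths in the growth protocol applied. The study asked how ploidy relates to flowering time and to trimethylation of histone H3 at lysine 27, and glucosinolates are outside that question.

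Glucosinolates are sulfur-rich defence compounds of crucifers that a thioglucosidase breaks down when tissue is damaged. The aliphatic ones are built from methionine, whose side chain is first lengthened in a separate chain elongation pathway. The core pathway then turns the lengthened amino acid into the parent glucosinolate: cytochromes P450 of the CYP79 and CYP83 families make and oxidise an aldoxime, glutathione is added and trimmed, a C-S lyase releases a thiohydroximate, and a glucosyl and a sulfate group complete the molecule. Indole glucosinolates, built from tryptophan, pass through the same kinds of step with mostly different enzymes.

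Each deposited table gives 1 mean normalised count per gene over its 4 libraries and the authors' DESeq2 log2 fold change between ploidies with its standard error, which is the ± used below. Values of single libraries are not shown here because the tables hold means, so the mean count of each ploidy was worked out from the mean and the fold change and is called the implied count. Libraries averaged 22343366 normalised reads in Col-0 and 22138532 in Ler. The headers do not state the direction of the fold change, and it was read as tetraploid over diploid. That reading rests on genes outside the core pathway: for Col-0 the authors' deposited table gives 2.63 ± 0.17 for FLC, which is known to be higher in tetraploid Col-0, and 6.94 ± 0.07 for ESP, which is known to be low in diploid Col-0. It also rests on ESM1, known to be high in diploid Col-0, with −3.93 ± 0.07 in the same deposited table of the authors. The Ler table is named the same way and was read the same way, and every direction below depends on this. In Ler, FLC, ESP and ESM1 gave 0.41 ± 0.29, 0.58 ± 0.11 and 0.08 ± 0.13 in the authors' deposited table. Mean counts of ESP and ESM1 were 32535 and 8032 in Col-0 and 40263 and 877 in Ler. For both genes, tetraploid Col-0 differed from diploid Col-0 in the direction in which the Ler mean differed from the Col-0 mean. Whether the tetraploid Col-0 line differs from the diploid one in more than ploidy was not tested. The diploid and tetraploid plants of an ecotype are separate lines, so ploidy cannot be told apart from other differences between those lines. The leaf markers RBCS1A, LHCB1.3, RBCS3B and RCA had mean counts between 231748 and 619046, and of them LHCB1.3 fell in Col-0, by 0.23 ± 0.05 in the authors' deposited table. The listed root, seed and floral markers had mean counts of at most 4.14, 7.89 and 5.73 in either table. In diploid and in tetraploid Col-0, the implied counts (worked out as above) summed to 4.08 and 7.02 over the listed root markers, 6.48 and 20.6 over seed markers and 11.8 and 10.5 over floral markers. EXPA7, RHD6 and SESA1 were listed in neither table. Of these markers of other tissues 1 was called, the seed oleosin gene OLEO1 in Col-0 at a mean count of 5.63, and its part in the results was not tested. The root markers were nearly absent in both ecotypes, and whether the seedling samples held roots was not tested.

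In Col-0, 8 of the 9 core synthesis genes rose in the tetraploid and 0 fell, by the authors' adjusted p under 0.05. Over all genes with an adjusted p in that table, 7.13% rose, 8.23% fell and 15.4% changed in either direction. The median log2 fold change of the 9 genes was 1.15, against 0.00 over all 21420 genes with an adjusted p, and 6 of the 9 were at least 2-fold higher. Their implied counts summed to 20066 in diploid and 44135 in tetraploid libraries, a 2.20-fold difference. Counts are scaled to the library, so a change in RNA per cell of whole tetraploid cells is not seen in them. In seedlings, a change in the number of cells of a type and a change in RNA per cell also cannot be told apart.

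In Ler, 2 of the 9 genes rose, CYP79F2 and GSTU20, and 0 fell, where 3.19% of all genes rose, 1.91% fell and 5.1% changed in either direction. The median log2 fold change of the 9 genes was 0.24, against −0.01 over all 18683 genes with an adjusted p, and 0 of the 9 were 2-fold higher. Both calls ended when the statistics were rescaled to the spread seen over all genes (an empirical null), with adjusted p of 0.46 for CYP79F2 and 0.478 for GSTU20. An unadjusted p under 0.05 was reached by 3 of the 9 genes in Ler and by 8 of 9 in Col-0, against 13% and 22.3% of all genes listed. The implied counts of the 9 genes in Ler summed to 23083 in diploid and 27385 in tetraploid libraries, a 1.19-fold difference.

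**Figure D1:**
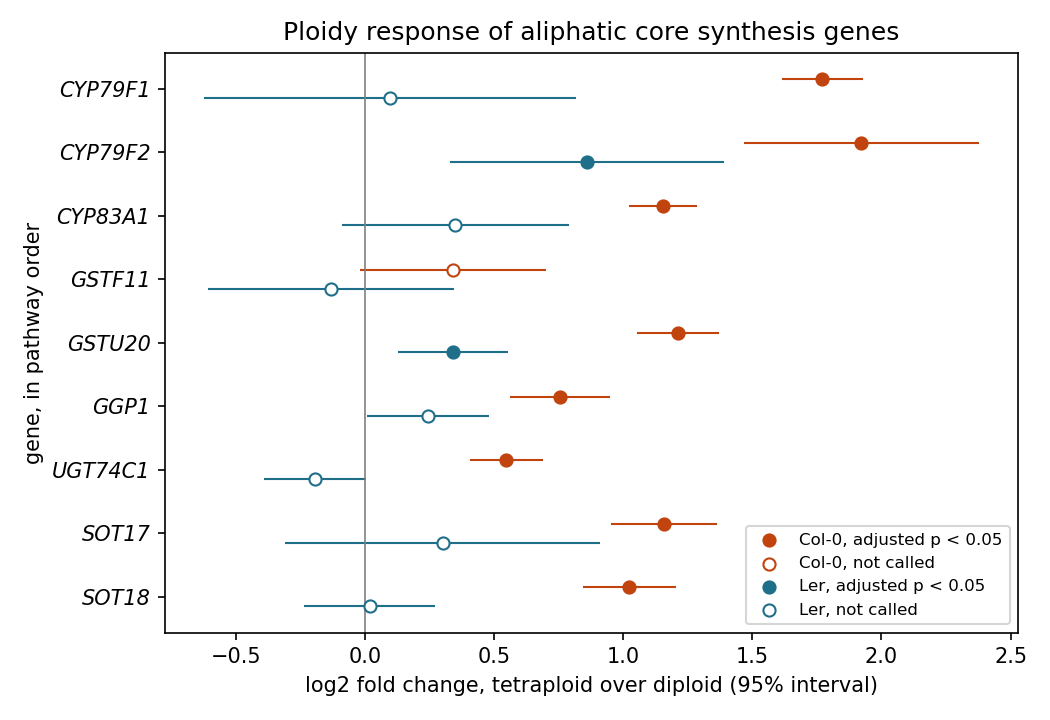
Log2 fold change of each core synthesis gene, tetraploid over diploid (x axis), in pathway order (y axis), with 95% intervals from the authors' standard errors. Filled points have an authors' adjusted p under 0.05, which holds for 8 genes in Col-0 and 2 in Ler, and the Col-0 point lies to the right of the Ler point for all 9 genes.

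The pathway is entered through CYP79F1 and CYP79F2, neighbouring genes on chromosome 1 whose enzymes convert chain-elongated methionine to aldoximes; CYP79F1 accepts short and long chains and CYP79F2 long ones. For CYP79F1 in Col-0, the implied count was 2264 in diploid and 7726 in tetraploid libraries, and the authors' deposited table gave a 3.41-fold rise (1.77 ± 0.08, DESeq2 adjusted p = 5.73e-106). CYP79F2 had implied counts of 91.4 and 346 in Col-0 and rose 3.79-fold there (1.92 ± 0.23, DESeq2 adjusted p = 9.37e-15 in the authors' deposited table). These were the highest fold changes of the 9 genes in Col-0. Among 14418 genes of Col-0 whose mean count reached 100, 54 had a higher log2 fold change than CYP79F2 and 68 a higher one than CYP79F1.

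In Ler the call went to CYP79F2 and not to CYP79F1. The implied count of CYP79F1 was 1200 in diploid and 1282 in tetraploid Ler, and its log2 fold change was 0.10 ± 0.37 in the authors' deposited table (DESeq2 adjusted p = 0.961). The 95% interval of that fold change ran from 0.648-fold to 1.76-fold, so a rise of the size seen in Col-0 lies outside it. CYP79F2 went from an implied 104 to 190 and rose 1.82-fold in the authors' deposited table for Ler (0.86 ± 0.27, DESeq2 adjusted p = 0.0337). The genes are similar tandem copies, and the sources used here do not say how reads that match both were counted, so the split between them is uncertain.

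CYP83A1, on chromosome 4, oxidises the aldoximes to reactive products that are then conjugated. Its implied count went from 4717 to 10492 in Col-0, a 2.22-fold rise in the authors' deposited table (1.15 ± 0.07, DESeq2 adjusted p = 7.37e-62). In Ler the implied counts were 6030 and 7684, and the authors' deposited table gave 0.35 ± 0.22 (DESeq2 adjusted p = 0.497), a 95% interval of 0.941-fold to 1.73-fold. That interval ends below the Col-0 value.

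Glutathione S-transferases are thought to join glutathione to this product, and the members assigned to the aliphatic pathway are GSTF11 of the phi class and GSTU20 of the tau class. In Col-0 GSTU20 was called and GSTF11 was not. GSTU20, on chromosome 1, went from an implied 5664 to 13119 in Col-0, a 2.32-fold rise in the authors' deposited table (1.21 ± 0.08, DESeq2 adjusted p = 4.88e-49). GSTF11, on chromosome 3, had implied counts of 267 and 338 in Col-0 and was the member not called there (0.34 ± 0.18 in the authors' deposited table, DESeq2 adjusted p = 0.247). Its 95% interval, 0.986-fold to 1.63-fold, leaves room for a moderate rise but ends below the rise of GSTU20. In Ler, GSTU20 went from an implied 8769 to 11100 and rose 1.27-fold in the authors' deposited table (0.34 ± 0.11, DESeq2 adjusted p = 0.0369). GSTF11 in Ler had implied counts of 205 and 187 and a log2 fold change of −0.13 ± 0.24 (DESeq2 adjusted p = 0.90) in the authors' deposited table.

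GGP1, a gamma-glutamyl peptidase gene on chromosome 4, acts on the glutathione conjugates, in indole as well as aliphatic synthesis. In Col-0 its implied count went from 2036 to 3437, a 1.69-fold rise in the authors' deposited table (0.75 ± 0.10, DESeq2 adjusted p = 7.17e-13). The authors' deposited table for Ler gave 0.24 ± 0.12 (DESeq2 adjusted p = 0.299), with implied counts of 1898 and 2245 and an unadjusted p of 0.0447. The next enzyme, the C-S lyase encoded by SUR1, also serves both branches and is not among the 9 genes; it rose 1.50-fold in Col-0 (0.58 ± 0.09) and gave −0.07 ± 0.12 in Ler in the authors' deposited tables.

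UGT74C1, on chromosome 2, encodes a glucosyltransferase that adds glucose to thiohydroximates. Its implied count went from 2980 to 4354 in Col-0, a 1.46-fold rise in the authors' deposited table (0.55 ± 0.07, DESeq2 adjusted p = 2.12e-12), the lowest among the 8 genes called there. In Ler it had implied counts of 2710 and 2372 and a log2 fold change of −0.19 ± 0.10 (DESeq2 adjusted p = 0.335) in the authors' deposited table. The sign thus differed between the ecotypes, but the Ler value was not called.

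The last step, transfer of sulfate to the desulfoglucosinolate, is carried out on aliphatic substrates mainly by the sulfotransferases SOT17 and SOT18, both encoded on chromosome 1. SOT17 went from an implied 838 to 1868 in Col-0, a 2.23-fold rise in the authors' deposited table (1.16 ± 0.10, DESeq2 adjusted p = 2.44e-26). SOT18 went from 1208 to 2455, a 2.03-fold rise (1.02 ± 0.09, DESeq2 adjusted p = 1.01e-26 in the authors' deposited table for Col-0). Neither was called in Ler. There SOT17 had implied counts of 612 and 754 and gave 0.30 ± 0.31 in the authors' deposited table (DESeq2 adjusted p = 0.76). SOT18 had 1553 and 1572 and gave 0.02 ± 0.13 in the same deposited table of the authors (DESeq2 adjusted p = 0.983), and its 95% interval was 0.849-fold to 1.21-fold.

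**Figure D2:**
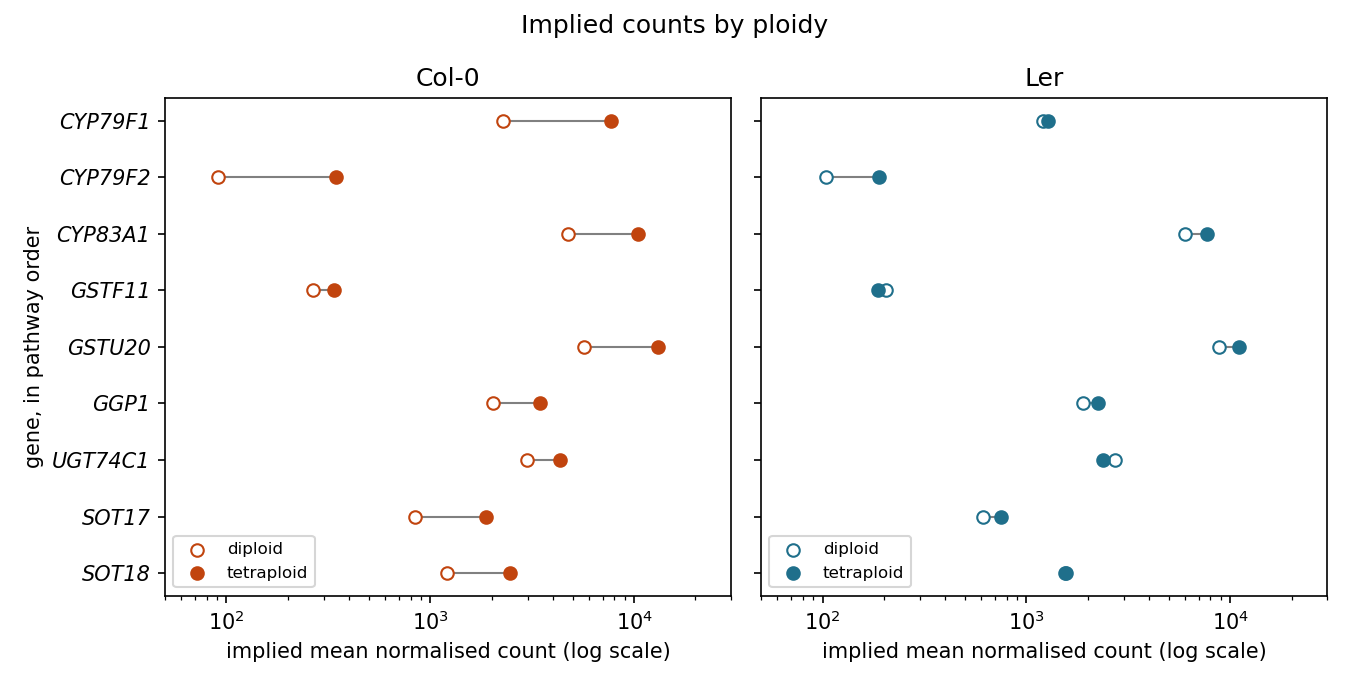
Implied mean normalised count (x axis, log scale) of each core synthesis gene in diploid (open) and tetraploid (filled) libraries, worked out from the authors' mean and fold change, with Col-0 on the left and Ler on the right. In Col-0 CYP79F1 moves from 2264 to 7726 and GSTU20 from 5664 to 13119, while in Ler the open and filled points of SOT18 lie at 1553 and 1572.

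The size of the Col-0 rise varied along the pathway. In descending order of log2 fold change the genes were CYP79F2, CYP79F1, GSTU20, SOT17, CYP83A1, SOT18, GGP1, UGT74C1 and GSTF11. CYP79F2 and CYP79F1 differed by 0.15 with a combined standard error of 0.25, and so were not separated. The gap from CYP79F1 to GSTU20 was 0.56 on the log2 scale, 4.94 times the combined standard error of 0.11. GSTU20 and SOT17 differed by 0.06 and SOT17 and CYP83A1 by 0.00, and CYP83A1 and SOT18 differed by 0.13 ± 0.11. The steps from SOT18 to GGP1 (0.27 ± 0.13) and from GGP1 to UGT74C1 (0.21 ± 0.12) were 2.00 and 1.71 times their combined standard errors. In Ler no gap between neighbours in the order exceeded 1.46 times its combined standard error. These combined errors treat the genes as independent, although their values come from the same libraries.

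The ploidy response of 7 of the 9 genes was smaller in Ler than in Col-0, by a two-sided Wald test of the difference in log2 fold change with adjustment over 21361 genes listed in both tables. Over all shared genes 3.74% were called below 0 in this test and 8.71% in either direction. The Ler minus Col-0 difference was below 0 for all 9 genes, with a median of −0.86 against 0.01 over all shared genes. CYP79F1 had the largest difference, −1.68 ± 0.38 (adjusted p = 0.00028), and the smallest among those called was GGP1 with −0.51 ± 0.16.

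**Figure D3:**
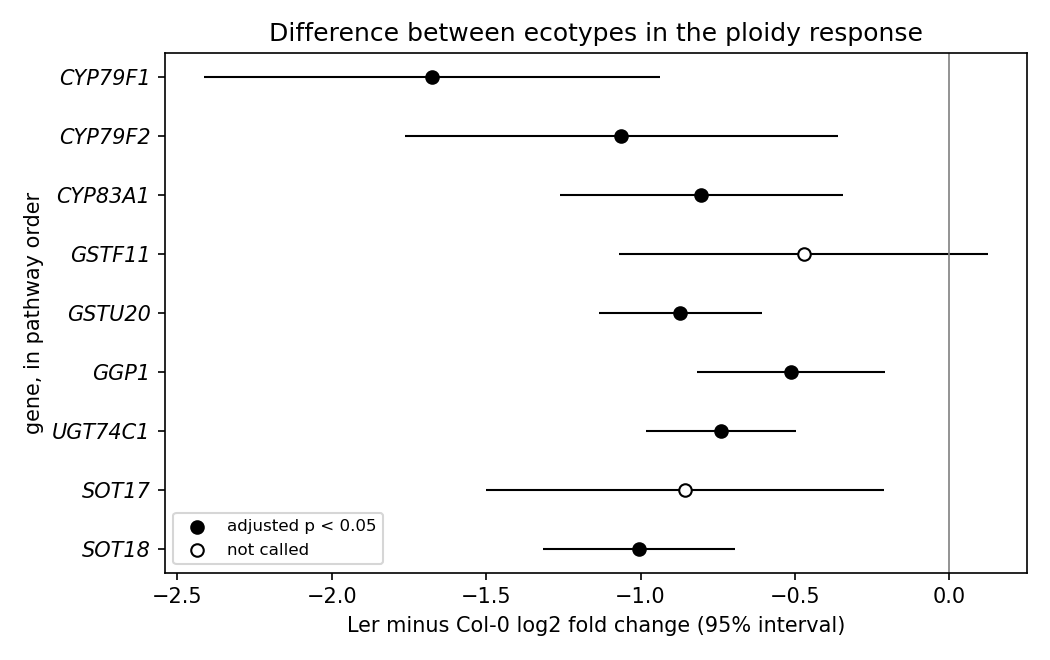
Ler minus Col-0 log2 fold change of each core synthesis gene (x axis) in pathway order (y axis), with 95% intervals. Filled points have an adjusted p under 0.05 over all shared genes, and all 9 points lie below 0, from −1.68 for CYP79F1 to −0.47 for GSTF11.

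The smallest adjusted p of the difference were those of GSTU20, SOT18 and UGT74C1. SOT18 differed by −1.01 with a 95% interval of −1.32 to −0.70 (adjusted p = 1.94e-08 by the genome-wide Wald test), and GSTU20 by −0.87 with an interval of −1.14 to −0.61 (adjusted p = 9.59e-09). For UGT74C1 the difference was −0.74, with an interval of −0.98 to −0.50 and an adjusted p of 1.81e-07. CYP79F2 (−1.06 ± 0.36, adjusted p = 0.0372), CYP83A1 (−0.80 ± 0.23, adjusted p = 0.0102) and GGP1 (interval −0.82 to −0.21, adjusted p = 0.0151) passed the threshold by less. SOT17 (−0.86 ± 0.33, adjusted p = 0.0856) and GSTF11 (−0.47 ± 0.30, adjusted p = 0.468) were not called, and the interval of SOT17 ran from −1.50 to −0.21. With the empirical null, 3 of the 7 calls were left, those of GSTU20, UGT74C1 and SOT18. The share of all shared genes called under that null is not given here, so this count has no background beside it.

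Several of these genes were measured less precisely in Ler than their counts would give. The standard error of CYP79F1 in Ler, 0.37, was higher than that of 99.8% of 1168 genes with a mean count within 1.2-fold of its own, whose median was 0.11. In Col-0 the standard error of CYP79F1 was 0.08, higher than that of 90.8% of 260 genes of similar count, whose median was 0.07. The standard error can also be expressed as an implied spread, the coefficient of variation it implies beyond counting error. DESeq2 standard errors draw on information from other genes. The implied spread is thus not the measured spread of a gene's own replicates. For CYP79F1 it was 25.3% in Ler and 5.27% in Col-0. SOT17 and CYP83A1 had implied spreads of 21.2% and 15.4% in Ler and of 6.62% and 4.55% in Col-0. UGT74C1 had 6.69% in Ler. GSTU20 had 7.45% there, but its standard error was still above that of 98.5% of genes of similar count. The median over all genes whose mean count reached 100 was 9.77% in Ler and 9.61% in Col-0.

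In Ler 7 of the 9 core genes had a standard error above that of 90% of genes of similar count, and in Col-0 3 did, where 10% of genes would by definition; a wider window of 1.4-fold, chosen after seeing the data, gave 6 and 2. Of the 9 chain elongation genes 5 were above that mark in Ler and 4 in Col-0, with implied spreads of up to 44.9% in Ler, for MAM1 at a mean count of 17.2, and of up to 13.2% in Col-0. The indole counterparts of the core genes had 6 of 7 above it in Ler and 5 of 7 in Col-0, with implied spreads of at most 17.3% and 22.0%. Which Ler libraries differ from each other in these genes, and in which ploidy, is not shown by means and standard errors. Of the genes not called in Ler, CYP79F1, SOT17, GSTF11 and CYP83A1 had standard errors of 0.22 to 0.37, and SOT18, GGP1 and UGT74C1 of 0.10 to 0.13.

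**Figure D4:**
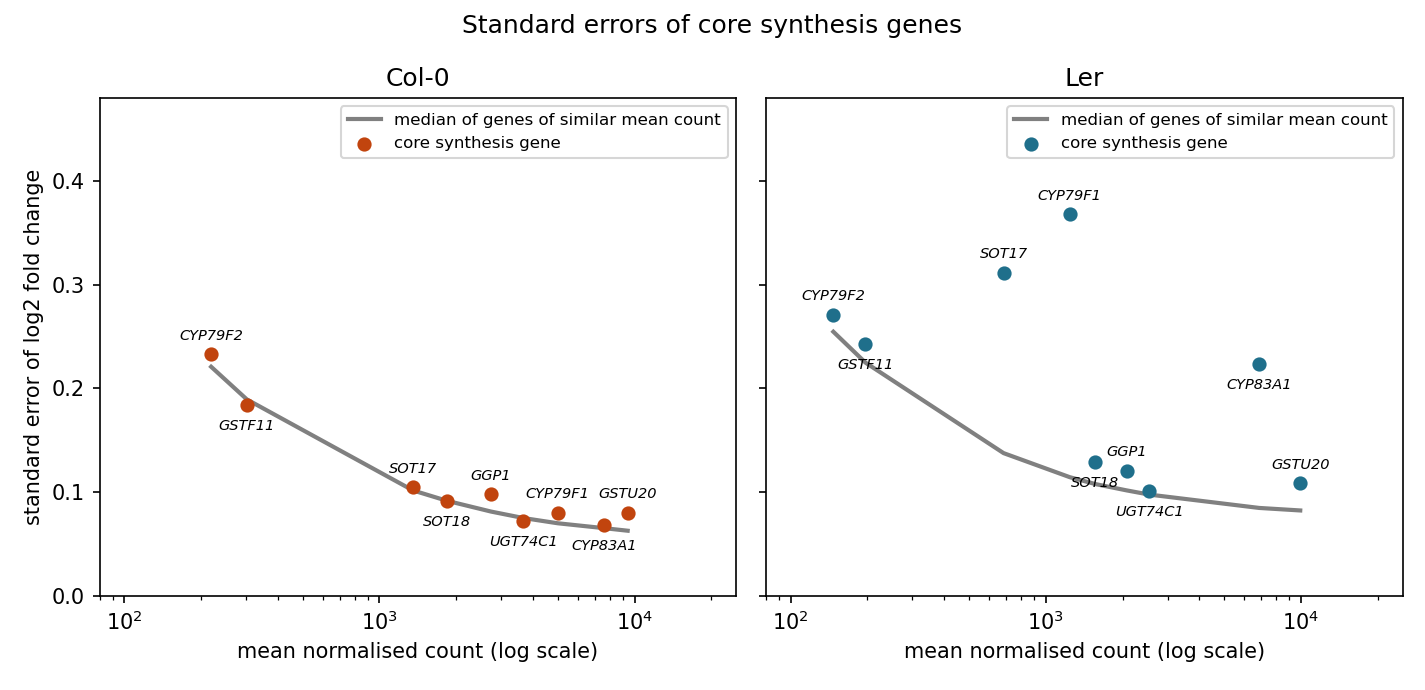
Authors' standard error of the log2 fold change (y axis) against mean normalised count (x axis, log scale) for the core synthesis genes, with the median standard error of genes within 1.2-fold of each gene's mean count as a grey line. CYP79F1 at 0.37, SOT17 at 0.31 and CYP83A1 at 0.22 lie well above the line in Ler, and the Col-0 points lie near it.

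Chain elongation supplies the substrates of CYP79F1 and CYP79F2. Of its 9 listed genes 9 rose in Col-0, with a median log2 fold change of 1.38, and in Ler 0 were called by the authors' DESeq2 test and 0 had an unadjusted p under 0.05. BCAT4, the aminotransferase gene of the first elongation step, rose 3.64-fold in Col-0 in the authors' deposited table (1.86 ± 0.09). IPMI SSU3 and IPMI LSU1, which encode isomerase subunits, rose 2.60-fold (1.38 ± 0.09) and 1.78-fold (0.83 ± 0.07) in the same deposited table of the authors. MAM3, a gene of the condensing enzymes, rose 4.71-fold in the authors' deposited table (2.23 ± 0.19). The Ler minus Col-0 difference was called below 0 for 7 of the 9 elongation genes, with a median of −1.23. MAM1 is among those called, but its mean count was 6317 in Col-0 and 17.2 in Ler, so its responses cannot be compared between the ecotypes.

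Sulfate for the last step comes from the donor PAPS, which the kinases APK1 and APK2 make. Of 5 genes listed under PAPS supply 5 rose in Col-0. In Ler 0 were called and 0 had an unadjusted p under 0.05 in the authors' DESeq2 test. The 5 include SAL1 (0.42 ± 0.10 in the authors' deposited table for Col-0), whose enzyme does not make PAPS. The list does not hold every gene of PAPS supply. APK1 rose 2.61-fold (1.38 ± 0.09) and APK2 2.49-fold (1.32 ± 0.09) in the authors' deposited table for Col-0, and the ATP sulfurylase gene ATPS3 rose 2.00-fold (1.00 ± 0.12). ATPS1, another ATP sulfurylase gene, rose by 0.33 ± 0.07 on the log2 scale in the same authors' deposited table. Both kinase genes differed between the ecotypes, by −1.30 ± 0.15 for APK1 and −1.28 ± 0.16 for APK2.

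Side-chain modification follows the core pathway. Of 8 listed genes 7 were in the Col-0 table, where 3 rose and 0 fell. The dioxygenase gene GS-OH rose 4.27-fold (2.09 ± 0.07), the S-oxygenase gene FMO GS-OX1 2.27-fold (1.18 ± 0.10) and FMO GS-OX3 1.87-fold (0.90 ± 0.09) in the authors' deposited table for Col-0. FMO GS-OX5 was not called there, at 0.25 ± 0.11 in the authors' deposited table. In Ler 6 of 8 had an adjusted p, 0 were called by DESeq2 and 0 had an unadjusted p under 0.05. GS-OH, at a mean count of 7825 in Col-0, had 2.58 in Ler, and AOP3 had 0.53 in Col-0 and 2238 in Ler, so their responses cannot be compared between the ecotypes.

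**Figure D5:**
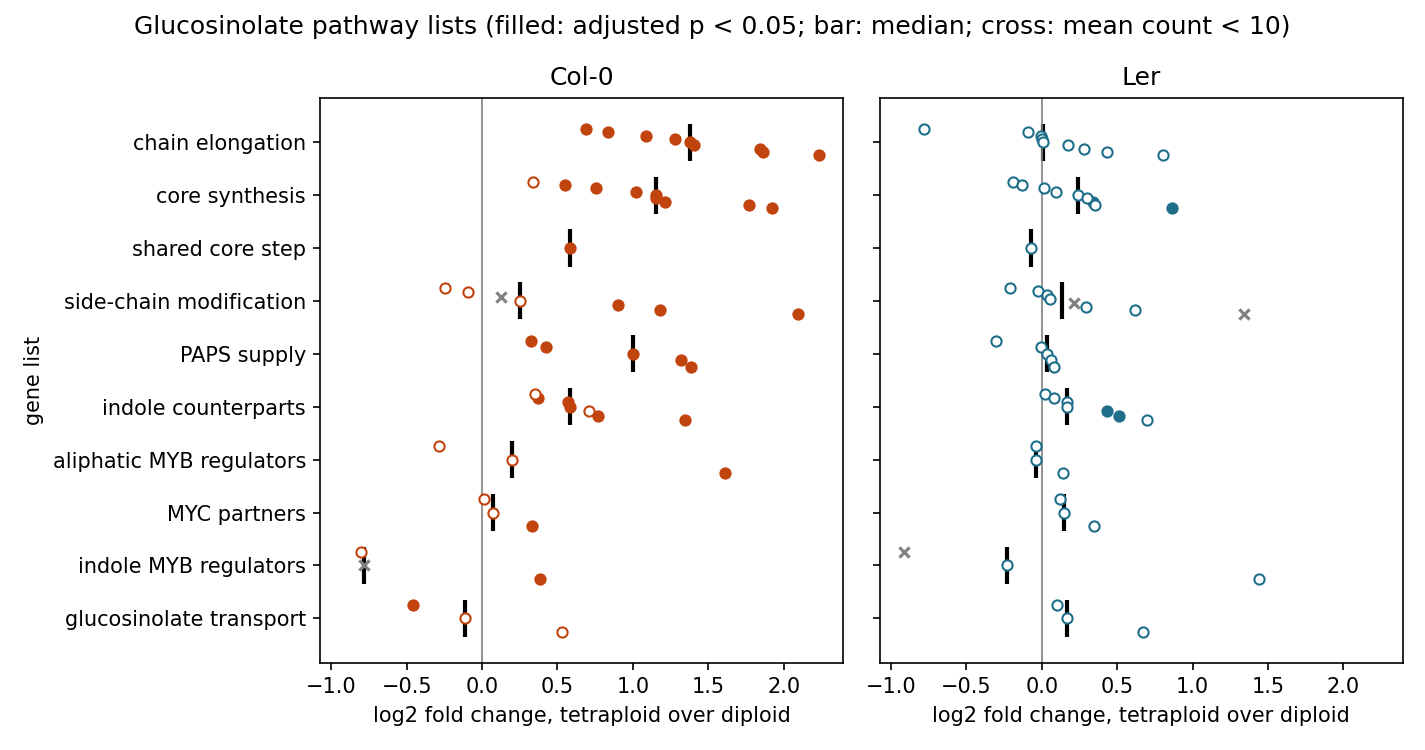
Log2 fold change, tetraploid over diploid (x axis), of every listed gene of 10 glucosinolate gene lists (y axis), with Col-0 on the left and Ler on the right; filled points have an authors' adjusted p under 0.05, crosses a mean count under 10, and bars mark medians. In Col-0 the medians of chain elongation, core synthesis and PAPS supply are 1.38, 1.15 and 1.00, and in Ler they are 0.01, 0.24 and 0.04.

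Of the 7 listed indole counterparts of the core genes 5 rose in Col-0, with a median of 0.59, and 2 in Ler, with a median of 0.17. At the CYP79 step, the tryptophan-converting CYP79B2 and CYP79B3 gave 0.71 ± 0.32 and 0.37 ± 0.13 in the authors' deposited table for Col-0, beside the 1.77 ± 0.08 of CYP79F1, and of the pair only CYP79B3 was called (DESeq2 adjusted p = 0.027). CYP83B1, the counterpart of CYP83A1, gave 0.35 ± 0.22 in Col-0 and was not called, while it rose in Ler in the authors' deposited table (0.43 ± 0.11, DESeq2 adjusted p = 0.006). CYP83A1 was called in Col-0 and not in Ler, where its 0.35 ± 0.22 matched the uncalled value of CYP83B1 in Col-0. The Ler minus Col-0 difference of CYP83B1, 0.08 ± 0.25, was not called. That of CYP83A1 was called by the Wald test, but not with the empirical null (adjusted p = 0.434).

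The transferases listed as indole counterparts follow the same order of steps. GSTF9 rose 2.54-fold in Col-0 and 1.43-fold in Ler in the authors' deposited tables (1.34 ± 0.07 and 0.51 ± 0.11), and GSTF10 gave 0.57 ± 0.08, called, and 0.70 ± 0.25, not called. UGT74B1, the main glucosyltransferase gene of the pathway, rose 1.71-fold in Col-0 in the authors' deposited table (0.77 ± 0.09), beside the 1.46-fold of UGT74C1. It is counted among the 7 but is not confined to the indole branch, so its calls are not particular to that branch. SOT16, whose enzyme prefers indole substrates, rose 1.50-fold (0.59 ± 0.11) in the authors' deposited table for Col-0, beside 2.23-fold and 2.03-fold for SOT17 and SOT18. The difference between ecotypes was called for GSTF9 (−0.83 ± 0.13) and UGT74B1 (−0.75 ± 0.15), 2 of the 7. Differences between the branches within an ecotype were not tested, since their genes were measured in the same libraries.

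MYB28, MYB29 and MYB76 encode the MYB activators of aliphatic glucosinolate genes, and 1 of the 3 rose in Col-0. MYB28, regarded as the main one, had implied counts of 2246 and 2577 in Col-0 and was not called in the authors' deposited table (0.20 ± 0.10, DESeq2 adjusted p = 0.186). MYB29 had 1192 and 977 and a log2 fold change below 0 that also missed the threshold (−0.29 ± 0.11, DESeq2 adjusted p = 0.0638 in the authors' deposited table). MYB76, at a mean count of 129, rose 3.06-fold (1.61 ± 0.30) in the authors' deposited table for Col-0. In Ler 0 of the 3 were called by DESeq2 and 0 had an unadjusted p under 0.05, at −0.04 ± 0.09, −0.04 ± 0.20 and 0.14 ± 0.45 for MYB28, MYB29 and MYB76 in the authors' deposited table.

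The genes next to the core genes on the chromosomes were mostly not called. Of 48 protein-coding loci within 3 places of a core gene, 35 had an adjusted p in Col-0, and 4 of them, or 11.4%, were called, 2 higher and 2 lower, beside the 15.4% of all genes. Their median log2 fold change was −0.06. The called neighbours were SOT16, next to SOT18, NOV and AT4G13800, near CYP83A1, and TRM3, near SOT17, with 0.59 ± 0.11, 0.63 ± 0.18, −2.97 ± 0.36 and −0.50 ± 0.13 in the authors' deposited table. AT4G13800 had a mean count of 105 in Col-0 and 2.83 in Ler. GSTU19, the tau-class gene beside GSTU20, was not called (0.33 ± 0.19 in the authors' deposited table for Col-0). In Ler 0 of 31 neighbours with an adjusted p were called by DESeq2 and 2 had an unadjusted p under 0.05.

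The genes most like the core genes were found by their distance from the median pair of log2 fold changes, 1.15 in Col-0 and 0.24 in Ler, among genes whose mean count reached 100 in each table. The measure rests on 2 comparisons. The 9 core genes were left out, while genes of the other lists stayed among the candidates. The nearest were TMAC2, at a distance of 0.04 on the log2 scale, the arginase gene ARGAH2 (1.12 ± 0.07 and 0.18 ± 0.10 in the authors' deposited tables for Col-0 and Ler) and AK-HSDH I (1.21 ± 0.09 and 0.18 ± 0.12). AK-HSDH I encodes an aspartate kinase and homoserine dehydrogenase of the amino acid family that includes methionine. The other 7 of the 10 nearest were MLO10, AT1G78860, SBP2, TBL38, SPX1, NSP4 and AT5G24155, at distances of up to 0.15. Such distances are of the size of the standard errors or below them, as with 0.22 for TMAC2 and 0.25 for MLO10 in Col-0. The order among the 10 is therefore not resolved. NSP4 belongs to the nitrile-specifier proteins, which act when glucosinolates are broken down. Whether genes of methionine or glucosinolate metabolism are frequent among the nearest was not tested.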

How the data were processed

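Per the submitters' processing notes, HISAT2, Subread and DESeq2 were used with the genome build TAIR10; versions and strand setting are not given in the sources used here. Per the file headers, each of the 2 deposited tables gives a mean normalised count per gene over 4 libraries, which is a signal scaled by the authors with size factors, a log2 fold change and its standard error on the log2 scale, a Wald statistic, which is a score, and p-values, raw and Benjamini-Hochberg adjusted by the authors. The deposited statistic equals the ratio of fold change and error. Tables were normalised separately. Data of the 16 ChIP-seq libraries were not used here.

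Called means an adjusted p under 0.05. With equal library numbers per ploidy, implied counts follow from mean and fold change, and the implied coefficient of variation from the standard error less counting error. The ecotype difference was given a two-sided Wald test over genes in both tables (Python 3.11.15, scipy 1.17.1), checked on simulated estimates. It uses the log2 fold changes of the authors' DESeq2 fits, whose standard errors it takes as known. A RefSeq gene table of assembly TAIR10.1 served to match identifiers and was used for names, chromosomes and gene order; it matched 98.7% of Col-0 and 98.5% of Ler identifiers and all 9 core genes. All members were named, up to 4 genes of each other list, those with the smallest adjusted p, all indole counterparts, and called neighbours within 3 places; other named genes were chosen after their values were seen. The members and lists were chosen with earlier results of these data known. The labels do not say whether replicate libraries are separate plantings, so p-values reflect only the spread between libraries, possibly technical. Replicate depth is not given per library in the tables; 95% intervals rest on the authors' standard errors.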

Additional observations from a re-analysis of the deposited data

Results flagged for a closer look

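The ploidy response differed between the ecotypes for 7 core genes by a test of the difference itself. The Ler minus Col-0 log2 fold change was −1.68 for CYP79F1, −1.06 for CYP79F2, −0.80 for CYP83A1, −0.87 for GSTU20, −0.51 for GGP1, −0.74 for UGT74C1 and −1.01 for SOT18. Under the empirical null, the calls of CYP79F1, CYP79F2, CYP83A1 and GGP1 ended, with adjusted p of 0.121, 0.659, 0.434 and 0.492, and those of GSTU20, UGT74C1 and SOT18 held. For all 7 genes the fitted rise in tetraploid Col-0 was the larger one. UGT74C1 was the gene of these whose fitted value had opposite signs in the ecotypes, 0.55 in Col-0 and −0.19 in Ler, the latter not called.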

How the results depend on the processing

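All 8 Col-0 calls held with no filter on low counts, with genes of a mean count of at least 100, after recentring and with the empirical null. GSTF11 stayed uncalled in each. The settings that differ in the count filter reuse the same fold changes, so a direction could not change in them. Recentring moved Col-0 by only 0.0044 on the log2 scale. The empirical null, which divides the statistics by 1.67 in Col-0, 1.35 in Ler and 1.52 for the difference, ended both Ler calls, leaving 0 (adjusted p = 0.46 for CYP79F2 and 0.478 for GSTU20). It also reduced the differences between ecotypes from 7 to 3, with adjusted p of 0.121 for CYP79F1, 0.659 for CYP79F2, 0.434 for CYP83A1 and 0.492 for GGP1. Shares of all genes called under the empirical null are not given here. The other 93 alternatives for single genes kept the side of the threshold. Of the alternatives 0 reversed a direction, which those differing in the count filter could not do. No paired analysis was possible because the tables hold no values per library, and leaving out a replicate was not run for the same reason. Recentring removed at most 0.02 on the log2 scale.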

Other observations

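Of 3 listed glucosinolate transporter genes 1 was called. GTR1, a transporter gene for glucosinolates, fell in tetraploid Col-0 by 0.46 ± 0.11 in the authors' deposited table, with implied counts of 1400 in diploid and 1019 in tetraploid libraries, and gave 0.16 ± 0.12 in Ler. GTR2 was not called in either ecotype, at −0.11 ± 0.12 and 0.10 ± 0.11 in the authors' deposited tables, and neither was GTR3, at 0.53 ± 0.28 in Col-0 and 0.67 ± 0.25 in Ler in the authors' deposited tables. The difference between ecotypes was called above 0 for GTR1 (0.62 ± 0.16), opposite in sign to the core genes.

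MYC2, one of the MYC partners of the glucosinolate MYB factors, was called in Col-0 near the threshold (0.33 ± 0.12, DESeq2 adjusted p = 0.049) and missed it in Ler (0.34 ± 0.12, DESeq2 adjusted p = 0.0743) in the authors' deposited tables. MYC3 and MYC4 were not called in either. MYB34, an activator of indole glucosinolate genes, rose in Col-0 in the authors' deposited table (0.38 ± 0.12), gave −0.23 ± 0.11 in Ler, and differed between the ecotypes by −0.62 ± 0.16, a call in the same direction as those of the core genes.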
